A study of Rattus norvegicus with 3 samples.

Results

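Expression of 9 genes of pyruvate dehydrogenase and the tricarboxylic acid cycle was followed in cultured ventricular myocytes from newborn rats. The genes were Pdha1, Dld, Cs, Idh3a, Idh3g, Suclg1, Sdha, Sdhb and Mdh2, taken in the order of the pathway from a total of 10411 genes on the array. A probe set counted as a member when the platform annotation gave it 1 gene symbol and that symbol was among the 9. This gave 12 probe sets, 3 of them for Cs, 2 for Pdha1 and 1 for each of the other genes. RNA came from myocytes cultured for 48 h with 20 µM phenylephrine, for 48 h with 1 µM PAMH, or for 48 h without stimulus. With only 1 array per condition and no replicates, differences could not be checked against the spread between cultures, and no p-value or standard error could be given. Phenylephrine stimulates α1-adrenergic receptors and makes cultured cardiac myocytes grow, and PAMH is the submitters' name for the other compound, listed beside the keywords hypertrophy, 5-hydroxytryptamine and pyridine.

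Pyruvate made by glycolysis enters the mitochondrion and is turned into acetyl-CoA by the pyruvate dehydrogenase complex, which its kinases switch off and its phosphatases switch on. Citrate synthase joins acetyl-CoA to oxaloacetate, and the cycle then oxidises the carbon stepwise and passes the electrons to the respiratory chain. The heart depends on this supply for most of its energy, and its capacity for oxidative metabolism grows after birth.

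All values are signal intensities, multiplied by 1 factor for each array so that the medians over the non-control probe sets were equal. On the deposited values the medians over all probe sets were 107.9 for phenylephrine, 105.9 for PAMH and 117.8 for unstimulated cells, and the ratios below are relative to that shift. Signals under a floor of 76.0, percentile 40 of all scaled values, were not used for ratios. All 12 member probe sets lay above it on every array, the lowest signal being 5.22 times the floor. As a sign of RNA integrity, 3′ control signal over 5′ control signal was 1.44 with phenylephrine, 1.54 with PAMH and 1.72 in unstimulated cells for actin, and between 1.01 and 1.07 for Gapdh. Where several probe sets measured a gene, their log2 ratios varied around the gene's mean with an SD of 0.27 for phenylephrine over unstimulated, 0.29 for PAMH over unstimulated and 0.23 for PAMH over phenylephrine. This technical yardstick holds no variation between cultures.

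The first comparison set phenylephrine against no stimulus. By the brightest probe set of each gene, all 9 signals were higher on the phenylephrine array after median scaling, from 1.08-fold for Idh3g to 1.55-fold for Idh3a. Of all measured genes, 57.6% were higher. The median log2 ratio of the 9 was 0.30, against 0.07 over the 6571 genes measured on both arrays. Only Idh3a was at least 1.5-fold higher, which is 1 of 9 members (11.1%) against 8.90% of all measured genes, a share near the background. None was past 2-fold, against 2.62%. No member was at least 1.5-fold lower, against 4.54% of measured genes. After quantile normalization Idh3g, Mdh2 and Dld lay at or below 0 in this comparison, with log2 ratios of -0.18, -0.06 and -0.00, and Idh3g had -0.02 on the deposited intensities. In bulk cultures a change in the number of cells of a type and a change in RNA per cell cannot be told apart.

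The second comparison set PAMH against no stimulus. All 9 signals were again higher than in unstimulated cells after median scaling, from 1.14-fold for Idh3g to 2.03-fold for Idh3a, with a median log2 ratio of 0.33 against 0.10 over 6549 genes, of which 61.1% were higher. Idh3a was again the 1 member of 9 past 1.5-fold, where 9.31% of measured genes were, and the 1 member past 2-fold, where 2.05% were. None was at least 1.5-fold lower, against 4.17%. Under quantile and cyclic loess normalization Idh3g, Mdh2 and Sdha turned to the lower side, with log2 ratios between -0.15 and -0.02. Both comparisons use the same unstimulated array, so they share whatever deviation that array carries.

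**Figure D1:**
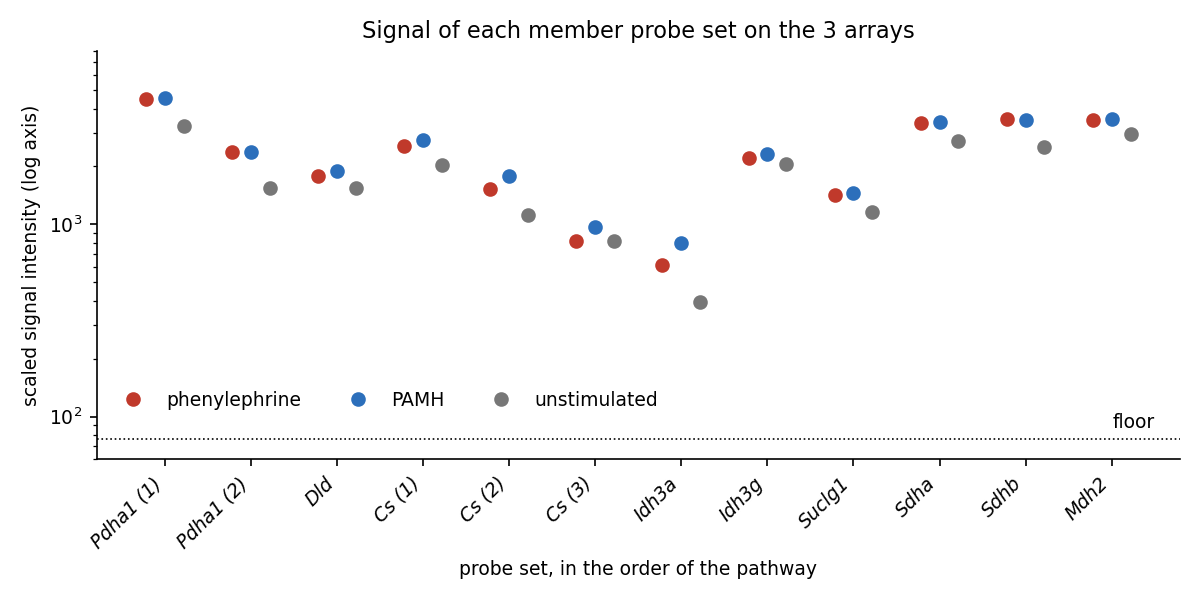
Scaled signal intensity (log axis) of the 12 member probe sets on the phenylephrine, PAMH and unstimulated arrays, with the floor as a dotted line. Numbers in brackets count the probe sets of a gene from the brightest. Each point is 1 array. The Idh3a signals are 615 with phenylephrine and 803 with PAMH, against 397 in unstimulated cells, and the third Cs probe set has nearly the same signal with phenylephrine (823) as without stimulus (821).

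Pyruvate dehydrogenase was represented by its first and its last catalytic component. Pdha1 encodes the α subunit of E1, the component that decarboxylates pyruvate and carries the serines that the kinases phosphorylate. Its brighter probe set had a signal of 4508 with phenylephrine and 4515 with PAMH, against 3261 in unstimulated cells. Both treated arrays lay above the unstimulated one and were nearly equal, and the log2 ratios were 0.47 and 0.47. The second probe set gave 2386 with phenylephrine and 2389 with PAMH, against 1542 without stimulus. Its log2 ratios of 0.63 and 0.63 were past 1.5-fold, unlike those of the brighter one, and differed from them by less than the yardstick. After quantile normalization the brighter probe set had 0.13 with phenylephrine and 0.14 with PAMH.

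Dld encodes dihydrolipoamide dehydrogenase, the E3 component that the pyruvate, 2-oxoglutarate and branched-chain keto acid complexes have in common. Its signal was 1792 with phenylephrine and 1885 with PAMH, against 1537 in unstimulated cells, giving log2 ratios of 0.22 and 0.29. Both were about the size of the yardstick or less, and quantile normalization left -0.00 and 0.01.

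Cs encodes citrate synthase, whose activity is widely used as a measure of mitochondrial content. Its brightest probe set had a signal of 2563 with phenylephrine and 2751 with PAMH, against 2027 in unstimulated cells. The second had 1528 with phenylephrine and 1787 with PAMH, against 1121 in unstimulated cells. The third had 823 with phenylephrine and 969 with PAMH, against 821 in unstimulated cells. On all 3 probe sets the PAMH array was highest, but the phenylephrine log2 ratios spread over 0.34, 0.45 and 0.00, and the PAMH ratios over 0.44, 0.67 and 0.24. Just 1 of the 3 was past 1.5-fold with PAMH and none with phenylephrine. After quantile normalization the brightest probe set had 0.05 with phenylephrine and 0.11 with PAMH.

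Isocitrate dehydrogenase held both the highest and the lowest ratios of the 9 genes. Idh3a encodes the α subunit of the NAD-dependent enzyme, which carries the active site, and Idh3g the γ subunit, which serves regulation. The Idh3a signal was 615 with phenylephrine and 803 with PAMH, against 397 in unstimulated cells. The PAMH array was highest and the unstimulated one lowest, and the log2 ratios were 0.63 for phenylephrine and 1.02 for PAMH. The Idh3g signal was 2210 with phenylephrine and 2333 with PAMH, against 2051 without stimulus, with log2 ratios of 0.11 and 0.19. The ratio of Idh3a exceeded that of Idh3g by 0.53 with phenylephrine and by 0.83 with PAMH on the log2 scale, and by 0.71 and 1.05 after quantile normalization. Under median scaling these gaps were 1.39 and 2.05 times the yardstick, once it was widened to fit a difference between independent ratios. For Sdhb and Sdhd the gap was 1.38 times that size with phenylephrine and 0.44 times with PAMH. Idh3b, the third subunit gene, had ratios close to Idh3g, at 0.11 and 0.27. After quantile normalization Idh3b had -0.17 and -0.05, and Idh3g -0.18 and -0.15. Idh3a had a single probe set, so no other sequence on the array checks its value. Among measured genes its ratio lay at percentile 92.5 with phenylephrine and 98.1 with PAMH.

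**Figure D2:**
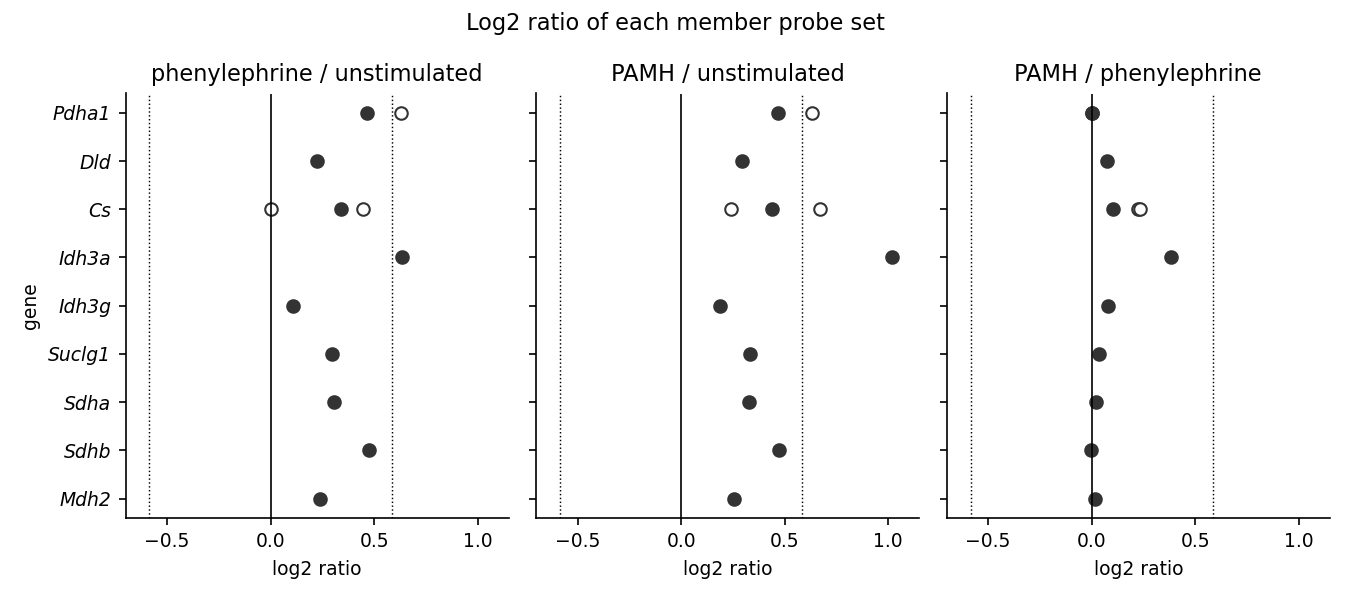
Log2 ratio of each member probe set for phenylephrine over unstimulated, PAMH over unstimulated and PAMH over phenylephrine, with the brightest probe set of a gene filled and the others open. Dotted lines mark 1.5-fold. With median scaling the ratios against the unstimulated array lie above 0, though after quantile normalization those of Idh3g and Mdh2 with both compounds, Dld with phenylephrine and Sdha with PAMH are below 0, and Idh3a reaches 1.02 with PAMH.

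Suclg1 encodes the α subunit of succinyl-CoA ligase, which makes a nucleoside triphosphate directly in the cycle. Its signal was 1426 with phenylephrine and 1463 with PAMH, against 1163 in unstimulated cells, and its log2 ratios were 0.29 and 0.33. Of its alternative partners, the β subunit gene Suclg2 had -0.15 and 0.13, and Sucla2 had 0.12 and 0.26. Quantile normalization left 0.04 and 0.05 for Suclg1, -0.35 and -0.12 for Suclg2, and -0.14 and -0.06 for Sucla2.

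Succinate dehydrogenase is both an enzyme of the cycle and complex II of the respiratory chain. Sdha encodes the flavoprotein that oxidises succinate, and its signal was 3363 with phenylephrine and 3416 with PAMH, against 2723 in unstimulated cells, with log2 ratios of 0.30 and 0.33. Sdhb encodes the iron-sulfur subunit, and its signal was 3518 with phenylephrine and 3506 with PAMH, against 2528 without stimulus, with log2 ratios of 0.48 and 0.47. For both genes the treated arrays were close together and above the unstimulated one. The membrane anchor genes had smaller phenylephrine ratios, 0.13 for Sdhc and -0.05 for Sdhd, and PAMH ratios of 0.29 and 0.29. A second Sdhd probe set had 0.11 with phenylephrine and 0.38 with PAMH. After quantile normalization the phenylephrine ratios, by the brightest probe sets, were 0.00 for Sdha, 0.19 for Sdhb, -0.17 for Sdhc and -0.35 for Sdhd. By these probe sets Sdhb stayed the highest of the 4 subunit genes.

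Mdh2 encodes the mitochondrial malate dehydrogenase, which regenerates oxaloacetate and also works in the malate-aspartate shuttle. Its signal was 3501 with phenylephrine and 3544 with PAMH, against 2965 in unstimulated cells, and its log2 ratios were 0.24 and 0.26. Its cytosolic counterpart Mdh1 had -0.01 and 0.28, and a second Mdh1 probe set had -0.44 and -0.14. By the brightest probe sets, quantile normalization left -0.06 and -0.11 for Mdh2, and -0.30 and -0.14 for Mdh1.

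The promoters of 8 of the 9 genes were found in RefSeq sequences of the GRCr8 build, and the entry for Idh3a was the one not matched. Each window runs from 250 bases before the gene's start to 50 after it. These 4 are shown because they belong to the lowest ratio of the set (Idh3g), to the highest ratios past Idh3a (Pdha1 and Sdhb) and to the partner subunit of Sdhb (Sdha). They were chosen after the values were seen. Each is written 5′ to 3′ along the gene, with capitals marking matches, on either strand, to the letters of an NRF1 motif (CGCANGCGC) or an ETS core (CCGGAAG), motifs of factors known for nuclear genes of mitochondria.
Pdha1, chrX:38508908-38509207, strand +: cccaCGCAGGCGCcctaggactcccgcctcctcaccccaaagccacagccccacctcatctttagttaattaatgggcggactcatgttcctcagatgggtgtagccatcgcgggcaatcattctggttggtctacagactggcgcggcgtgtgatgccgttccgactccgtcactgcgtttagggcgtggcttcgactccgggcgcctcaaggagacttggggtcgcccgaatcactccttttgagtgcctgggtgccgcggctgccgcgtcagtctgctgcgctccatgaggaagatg
Idh3g, chrX:156675433-156675732, strand -: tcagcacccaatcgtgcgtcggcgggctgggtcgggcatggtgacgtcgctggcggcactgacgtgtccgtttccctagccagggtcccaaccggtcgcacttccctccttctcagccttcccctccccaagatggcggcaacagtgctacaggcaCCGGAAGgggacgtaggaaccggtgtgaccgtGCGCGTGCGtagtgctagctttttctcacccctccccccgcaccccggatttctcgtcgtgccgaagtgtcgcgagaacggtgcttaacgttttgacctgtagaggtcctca
Sdha, chr1:30764303-30764602, strand +: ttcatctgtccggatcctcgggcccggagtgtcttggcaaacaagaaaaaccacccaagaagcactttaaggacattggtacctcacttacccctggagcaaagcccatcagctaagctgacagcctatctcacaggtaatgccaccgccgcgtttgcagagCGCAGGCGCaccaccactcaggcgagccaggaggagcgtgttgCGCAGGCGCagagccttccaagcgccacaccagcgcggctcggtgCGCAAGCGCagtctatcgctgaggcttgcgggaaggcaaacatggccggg
Sdhb, chr5:158547684-158547983, strand +: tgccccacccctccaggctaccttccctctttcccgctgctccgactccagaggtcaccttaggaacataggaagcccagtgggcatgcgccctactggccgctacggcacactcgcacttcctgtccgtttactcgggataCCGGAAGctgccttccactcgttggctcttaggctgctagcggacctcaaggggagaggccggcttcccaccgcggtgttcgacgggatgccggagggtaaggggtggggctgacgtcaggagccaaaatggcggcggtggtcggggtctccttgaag

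The Sdha window held 3 matches to the NRF1 letters, where 5.75% of 33469 rat promoter windows of the same length held any. Pdha1, Dld and Idh3g held 1 such match each, so 4 of the 8 windows had one. Sdhb, Idh3g and Mdh2 each held 1 match to the ETS core, against 8.75% of all windows. The letters of the ERR element (TNAAGGTCA), found in 1.20% of windows, were in none of the 8. No motif matches overlapped in the 4 windows shown. A match is a description of letters and was not set against binding data.

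PAMH and phenylephrine were also set against each other, at doses that differed (1 µM and 20 µM). The median log2 ratio of the 9 genes was 0.04 for PAMH over phenylephrine, and the same over the 6593 genes measured on both arrays. No member was at least 1.5-fold higher or lower, where 1.93% and 2.67% of measured genes were. Idh3a was furthest from 0, at a log2 ratio of 0.38, with 803 on the PAMH array against 615 on the phenylephrine array. The 2 lesser Cs probe sets had 0.23 and 0.24 in this comparison and the brightest 0.10. Pdha1, Sdha, Sdhb and Mdh2 lay between -0.01 and 0.02, and a cyclic loess fit put Idh3a at 0.35.

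The ratios depended on how bright a gene was. Measured genes were divided by mean signal into 10 classes of 640. In the brightest class the median log2 ratio was 0.24 with phenylephrine and 0.32 with PAMH, while in the dimmest it was 0.01 and 0.02. All members but Idh3a were in the brightest class. Their 8 log2 ratios lay between 0.11 and 0.48 with phenylephrine and between 0.19 and 0.47 with PAMH, on both sides of the medians of that class. In it 82.3% of genes were above 0 with phenylephrine and 87.5% with PAMH. Idh3a was in class 8, where the medians were 0.11 and 0.15 and where 10.8% of genes with phenylephrine and 10.9% with PAMH were at least 1.5-fold higher.

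**Figure D3:**
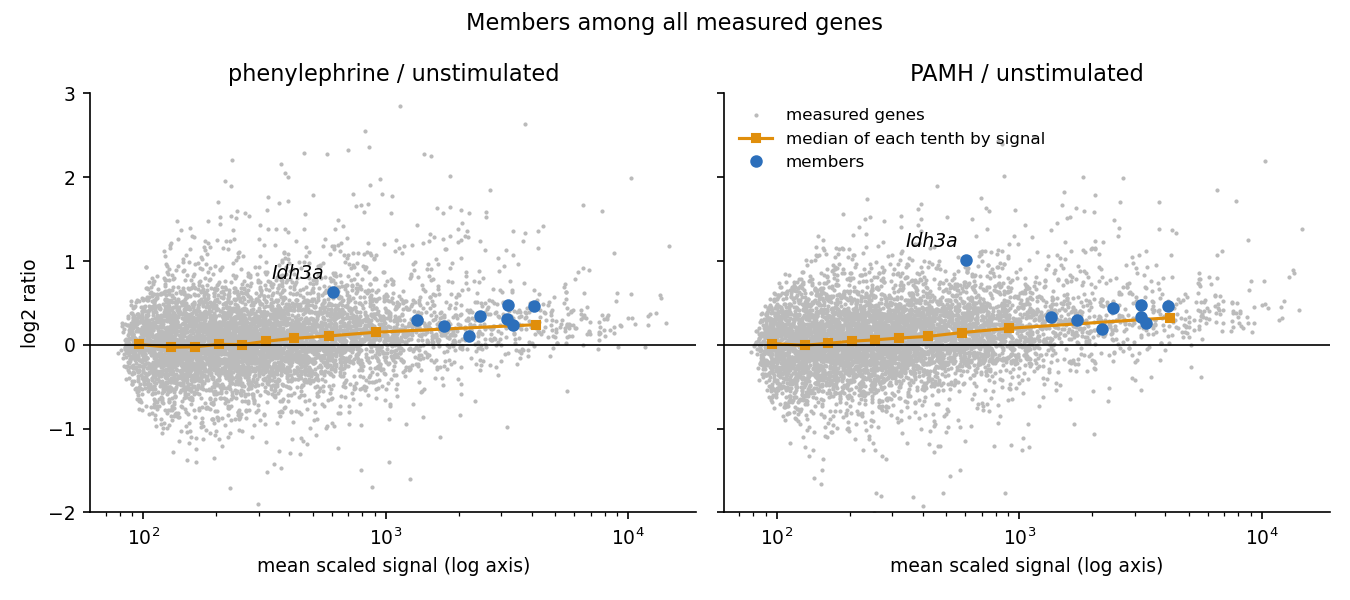
Log2 ratio of each measured gene against its mean scaled signal (log axis) for phenylephrine over unstimulated and PAMH over unstimulated, with members as blue points and the median of each of the 10 signal classes as squares. The axis leaves out 4 genes. The class median climbs to 0.24 and 0.32 in the brightest class, around which 8 members lie, and Idh3a stands above its own class at 0.63 and 1.02.

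Normalizations that remove this dependence on signal lowered the members' ratios. Under quantile normalization the median of the 9 was 0.04 with phenylephrine and 0.05 with PAMH, and under cyclic loess it was 0.09 and 0.08. In each of these fits 6 or 7 members were above 0. Idh3a kept the highest ratio of the 9 under all 9 alternatives for both compounds. Its PAMH ratio stayed between 0.86 and 1.02, past 1.5-fold throughout, and its phenylephrine ratio between 0.51 and 0.63. The 3 changes of the floor and the mean of the probe sets could not move Idh3a, which had 1 probe set well above the floor. Of the alternatives that could, only scaling on percentile 75 kept the phenylephrine ratio past 1.5-fold, at 0.59. The deposited intensities gave 0.51, quantile normalization 0.53, cyclic loess 0.52 and the offset of 50 gave 0.575.

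**Figure D4:**
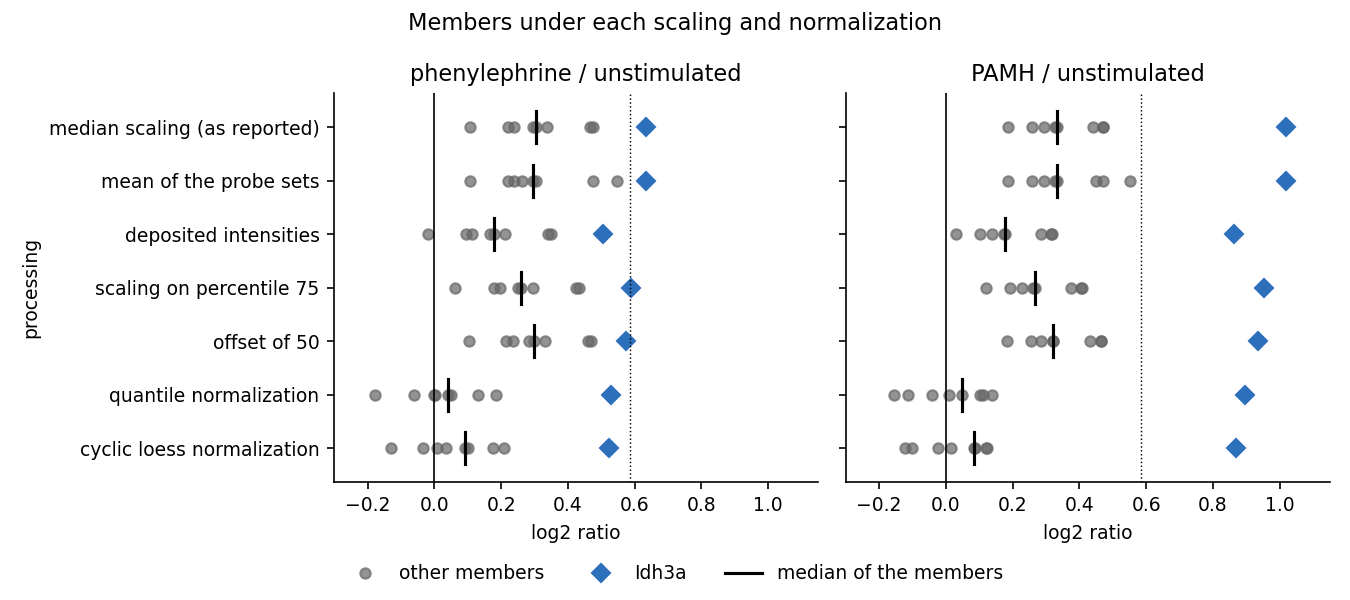
Log2 ratios of the 9 genes over unstimulated cells under median scaling and 6 of the alternatives; the 3 changes of the floor left every member's value as it was. Diamonds are Idh3a, circles the other 8 genes, vertical bars the median and the dotted line 1.5-fold. The medians move from 0.30 and 0.33 under median scaling to 0.04 and 0.05 under quantile normalization, where some members lie below 0, while Idh3a with PAMH stays at or above 0.86.

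Other genes of pyruvate entry differed among themselves. Of 13 listed, 10 were measured with phenylephrine, and 1 of them was past 1.5-fold on the higher side and 0 on the lower, at a median log2 ratio of 0.27 (0.15 after quantile normalization). With PAMH 3 of 11 were past it on the higher side and 0 on the lower, and the median was 0.25, or 0.00 after quantile normalization. The shares of all measured genes on the higher side were 8.90% with phenylephrine and 9.31% with PAMH. After quantile normalization only Pdp2 of the 3 stayed past 1.5-fold with PAMH, at 0.66. Mpc1, a subunit of the mitochondrial pyruvate carrier, had a signal of 3696 with phenylephrine and 3853 with PAMH, against 2384 in unstimulated cells. That is 1.55-fold and 1.62-fold, and log2 ratios of 0.33 and 0.32 after quantile normalization were below 1.5-fold. Pdhx, the component that binds E3 to the complex, had log2 ratios of 0.48 and 0.62, and 0.41 and 0.52 after quantile normalization. The phosphatase gene Pdp2 had 0.17 and 0.67 on dim signals of 141 with phenylephrine and 200 with PAMH, against 125 in unstimulated cells. Pdp1, the other phosphatase gene measured, was on the lower side, at -0.17 and -0.35, and -0.23 and -0.43 after quantile normalization. Its signals were brighter, 314 with phenylephrine and 277 with PAMH, against 353 in unstimulated cells. Pdhb, the partner of Pdha1 in E1, had only 0.06 and 0.25, and -0.26 and -0.12 after quantile normalization. Of the inhibitory kinases, Pdk1 had -0.38 and -0.39 by its brighter probe set, the other giving -0.73 and 0.05. Pdk2 had -0.48 with phenylephrine and -0.03 with PAMH, and Pdk3 had 0.43 and 0.35. Pdk4, whose signals of 114 with phenylephrine and 82.4 with PAMH, against 88.9 in unstimulated cells, were near the floor, had 0.36 and -0.11.

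A further list of 13 genes held other cycle enzymes and the assembly factors of succinate dehydrogenase. Of these genes, 11 were measured with each compound and none was 1.5-fold higher or lower. Their median log2 ratio was 0.09 with phenylephrine and 0.27 with PAMH, and -0.17 and -0.06 after quantile normalization, so the direction is not settled. Ogdh, the first component of 2-oxoglutarate dehydrogenase, had the highest ratios under median scaling, 0.39 and 0.57, and 0.13 and 0.25 after quantile normalization. The lowest were genes for assembly factors of succinate dehydrogenase, Sdhaf4 with -0.49 for phenylephrine and Sdhaf2 with -0.30 for PAMH. The other two assembly factor genes were not the lowest in either comparison, Sdhaf1 having 0.09 and -0.20 and Sdhaf3 -0.03 and 0.30. Dlat and Fh had no probe set with 1 symbol and were not analysed here.

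Among 23 related dehydrogenases, aminotransferases and carriers, 2 of 19 measured genes were at least 1.5-fold higher with each compound and none lower, a share near the 8.90% and 9.31% of all measured genes. The first was Oxct1, which activates ketone bodies to acetoacetyl-CoA using succinyl-CoA of the cycle. Its signal was 1958 with phenylephrine and 2508 with PAMH, against 1160 in unstimulated cells, or 1.69-fold and 2.16-fold. After quantile normalization Oxct1 had log2 ratios of 0.52, below 1.5-fold, and 0.81. The other was the sulfite oxidase gene Suox, with signals of 141 with phenylephrine and 151 with PAMH, against 91 in unstimulated cells, not far above the floor. Its log2 ratios were 0.63 and 0.73, and 0.64 and 0.72 after quantile normalization, past 1.5-fold with both compounds. Its lowest ratios over the alternatives were 0.44 and 0.51, below 1.5-fold. The median of this list was 0.03 with phenylephrine and 0.24 with PAMH, and -0.04 and 0.07 after quantile normalization.

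Genes for regulators and for structural parts of mitochondria were compared in the same way. Of 11 biogenesis genes only 4 were measured against the unstimulated array, and none was 1.5-fold higher or lower. Their median log2 ratio was 0.11 with phenylephrine and 0.44 with PAMH, and 0.09 and 0.39 after quantile normalization. The coactivator gene Ppargc1a had a dim signal of 77.1 with phenylephrine and 111.3 with PAMH, against 80.4 in unstimulated cells, or log2 ratios of -0.06 and 0.47. The nuclear receptor gene Esrra had 0.28 and 0.47, and Tfam, which packages and transcribes mitochondrial DNA, 0.03 and 0.41. Polg, the mitochondrial DNA polymerase, was the lowest of the 4 with PAMH by its brighter probe set, at 0.32. Its other probe set had 0.53 with phenylephrine and 0.58 with PAMH. Of 9 measured genes of mitochondrial import, pores and chaperones, Tomm20, an import receptor, was 1.69-fold higher with phenylephrine by its brighter probe set, the other having a log2 ratio of 0.37. After quantile normalization the brighter one had 0.51, below 1.5-fold. None of the 9 was past 1.5-fold with PAMH. The median of the 9 was 0.11 and 0.33, and -0.10 and 0.05 after quantile normalization, so its direction is not settled with phenylephrine. Tomm22 was lowest with phenylephrine (-0.24) and Vdac3 with PAMH (0.14), while Vdac2 was highest with PAMH (0.53).

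**Figure D5:**
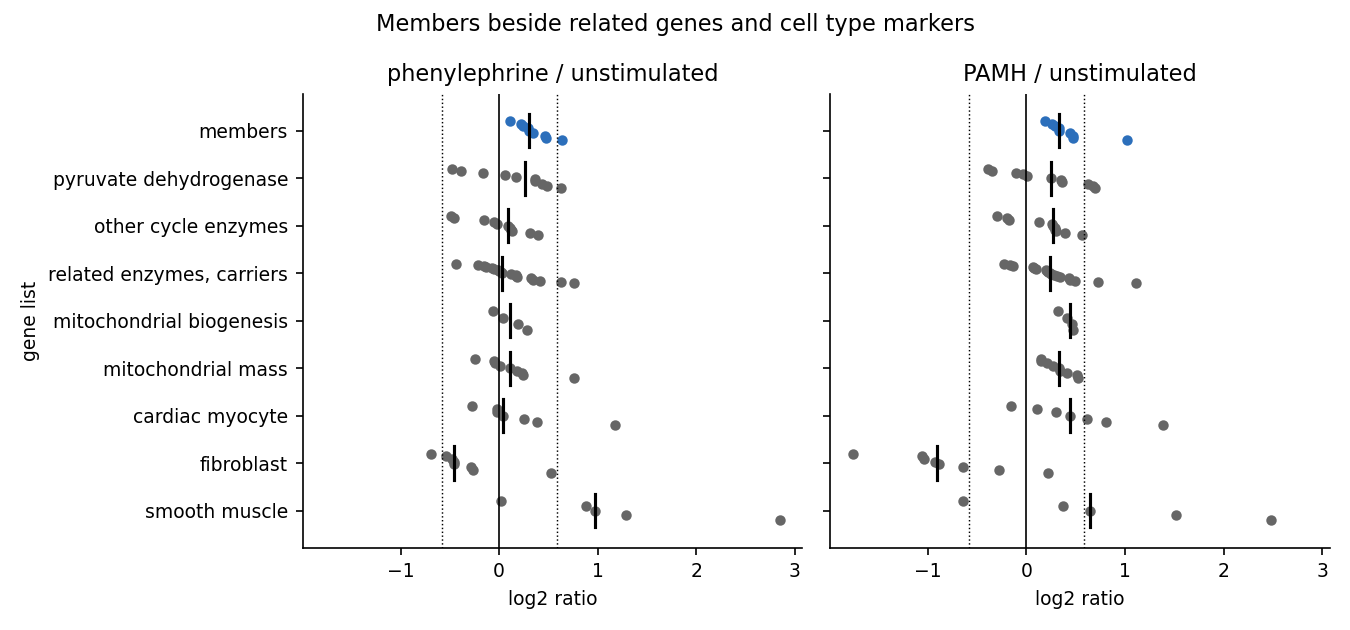
Log2 ratios over unstimulated cells of the 9 members and of 8 fixed lists under median scaling, for phenylephrine and for PAMH. Each point is 1 gene by its brightest probe set, bars are medians and dotted lines mark 1.5-fold. The members have medians of 0.30 and 0.33, which became 0.04 and 0.05 after quantile normalization, and the fibroblast markers -0.46 and -0.91.

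Marker signals of cell types also differed between the arrays. Summed over 7 cardiac myocyte markers, the signal was 59054 with phenylephrine and 72303 with PAMH, against 45303 in unstimulated cells, all 7 being above the floor on each array. Nppa, Mybpc3 and Myl2 were the members of that list past 1.5-fold with PAMH, with log2 ratios of 1.38, 0.61 and 0.81, and Nppa alone with phenylephrine, at 1.18. After quantile normalization only Nppa remained past it with PAMH (0.91), Mybpc3 having 0.24 and Myl2 0.18. Under median scaling Ryr2 was lower with both compounds, at -0.27 and -0.16. Myh6 had -0.03 and 0.30, Tnni3 -0.02 and 0.11, and Tnnt2 0.25 and 0.44. A second Myl2 probe set had -0.41 and 0.84, and a second Myh6 probe set -0.60 and -0.08. The second Tnnt2 probe set had 0.16 with PAMH and gave no phenylephrine ratio. Nppa made the largest difference to both sums, with 16987 for phenylephrine and 19589 for PAMH, against 7516 in unstimulated cells. The list's median, 0.04 with phenylephrine and 0.44 with PAMH, became -0.26 and -0.13 after quantile normalization. Summed over 9 fibroblast markers, the signal was 7281 with phenylephrine and 5633 with PAMH, against 9459 in unstimulated cells, with 8 above the floor on each treated array and 9 without stimulus. Of 8 measured, Dcn alone was at least 1.5-fold lower with phenylephrine (-0.70), and 6 were with PAMH, namely Postn (-1.76), Col3a1 (-1.06), Lum (-1.04), Fbn1 (-0.93), Dcn (-0.89) and Col1a1 (-0.64). A second Col1a1 probe set had -0.04 with PAMH, and a second Fbn1 probe set had -0.41. Thy1 was on the higher side, at 0.53 with phenylephrine and 0.21 with PAMH, though its second probe set had -0.53 with phenylephrine. After quantile normalization Col3a1 (-0.75), Fbn1 (-0.73) and Postn (-0.59) were also at least 1.5-fold lower with phenylephrine, and Col1a2 (-0.62) with PAMH. Summed over 5 smooth muscle markers, the signal was 11715 with phenylephrine and 9647 with PAMH, against 5367 in unstimulated cells. Cnn1 had log2 ratios of 2.85 and 2.48, Acta2 1.29 and 1.52, Myl9 0.97 and 0.64, Tagln 0.88 and 0.37, and Myh11 0.02 and -0.64. After quantile normalization Myl9 had 0.28 with PAMH, below 1.5-fold.

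Endothelial markers were nearly all below the floor, Pecam1, Vwf and Kdr on every array. Their sum over 4 genes was 243 with phenylephrine and 140.3 with PAMH, against 199 in unstimulated cells, and Eng alone gave a ratio, 0.32 with phenylephrine. Of 5 macrophage markers, 2 were above the floor on each array, with sums of 312 with phenylephrine and 342 with PAMH, against 294 in unstimulated cells, and these were Cd74 (-0.59 and -0.52) and Aif1 (0.18 and 0.56). The part of the cell mixture in the members' ratios was not tested.

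Many bright genes had a similar pair of ratios. Of 4152 other genes with a mean signal above percentile 60, 247 lay within a distance of 0.1 of the members' median pair of log2 ratios. The nearest 5 were Rpl23, Psmb1, Plcd3, Prep and Mgat4a, at Euclidean distances from 0.003 to 0.014 over the 2 ratios from 3 arrays.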

How the data were processed

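Total RNA of 3 cultures was measured on 1 Affymetrix rat array each. The authors deposited a linear signal intensity for every probe set of each array; the software that made it is not given in the sources used here. A trimmed mean (2% at each end) of the deposited intensities came to 250.1 on all 3 arrays. Of 15866 non-control probe sets, 12783 carried 1 symbol, 312 several and 2771 none in the platform annotation, and symbols were updated by gene identifier for 12748.

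Arrays were scaled by 1.02 (phenylephrine), 1.04 (PAMH) and 0.937 (unstimulated) to a common median. Log2 ratios were taken where both signals reached the floor, and the brightest probe set stood for a gene that had several. Members at 1.5-fold were counted beside all measured genes. With 1 array per group no test was possible, and precision is limited by that number. The ratio code was tested on simulated arrays with known folds, larger than those of most members, and with less scatter than the yardstick. They had no dependence of the ratio on signal, so the test covers the code and not the precision of these data. Alternatives were the deposited intensities without the median scaling, scaling on percentile 75, and quantile and cyclic loess normalization. Others were the mean of a gene's probe sets, an offset of 50, floors at percentiles 20 and 60, and no floor. Named list genes were those past 1.5-fold against unstimulated cells, or otherwise the highest and lowest. Partner subunits, the kinases, Pdp1, Tfam, further cell type markers and further assembly factors were added after their values were seen. Members and lists were chosen with earlier results of these data known. Python 3.11.15, numpy 2.4.6, pandas 2.3.3, R 4.3.3 and limma 3.58.1 were used.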

Additional observations from a re-analysis of the deposited data

How the results depend on the processing

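The median log2 ratio of the 9 genes stayed above 0 under the 9 alternatives for both treatments over unstimulated cells, from 0.04 to 0.30 for phenylephrine and from 0.05 to 0.33 for PAMH, but under quantile and cyclic loess normalization single members lay on either side of 0. For PAMH over phenylephrine it ranged from -0.02 to 0.04. The count of members past 1.5-fold with phenylephrine, 1 by median scaling, was 0 on the deposited intensities, after quantile normalization, after cyclic loess normalization and with an offset of 50, which leaves Idh3a below that fold. With PAMH the count was 1 under all 9 alternatives. On the deposited intensities, without the median scaling, the members' medians were 0.18 and 0.18, and Idh3g turned to -0.02 with phenylephrine. Those intensities already had equal trimmed means (250.1), so they are not values free of any scaling, and the median scaling came on top. The share of all measured genes above 0 with phenylephrine was 43.6% on the deposited intensities, against 57.6% after median scaling. No paired analysis was possible because each condition had 1 array, and no array could be left out. The cause of the dependence on signal was not tested.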
